A study of Mus musculus with 37 samples.

Results

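The genes described here were 57 genes of the cell cycle and of DNA replication, picked by symbol from the 24016 genes of a polyA RNA-seq table of mouse bone marrow-derived macrophages (BMDMs). They were grouped by role into 6 genes of growth-factor input, 9 of G1/S control, 15 of replication, 4 of nucleotide supply, 18 of mitosis and 5 brakes. All 57 had enough reads to be analysed, with a mean of at least 162 reads per library for each gene and no library below 26 reads.

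The study asked how loss of Arntl, the gene of the clock protein Bmal1, alters the time-dependent response of macrophages to TLR4 activation. Marrow of wild-type (WT) and Arntl-/- male mice aged 6 to 9 weeks was cultured for 6 days with M-CSF in medium holding 10% FCS, and the cells then received KLA, the lipid A part of lipopolysaccharide that TLR4 recognises. RNA was taken at 0, 6, 24 and 48 h, with 1 library for each genotype and time and 8 libraries in all. The groups were thus WT at 0 h, WT at 6, 24 and 48 h of KLA, and Arntl-/- at the same 4 times. Every group carried the M-CSF culture in common, the 0 h cells had no KLA, and Arntl-/- cells came from mice with the deletion in the whole body, not in macrophages alone. WT mice are given both as littermates and as C57BL/6J animals from a supplier, the knockout being on a C57BL/6 background, and how many animals made up a library is not given in the sources used here. With 1 library per condition, differences had no replicate check, conditions were not tested against each other, and the text holds no p-values.

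M-CSF drives marrow precursors to become macrophages and also drives their division, so BMDM cultures hold cycling cells. Growth-factor signals raise Myc and the D-type cyclins, which pair with Cdk4 and Cdk6 to inactivate the retinoblastoma protein and free E2F factors. E2F factors switch on the genes of DNA replication and nucleotide supply at the G1/S boundary. Genes of mitosis are switched on later in the cycle, largely through a promoter element called the cell cycle homology region (CHR) that the DREAM and MuvB complexes read. TLR4 ligands are known to stop the division of macrophages grown in M-CSF.

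Levels are given as scaled FPKM, the deposited FPKM divided by a size factor for each library, and ratios as log2 of (scaled FPKM + 0.1). FPKM values are per length, so levels may be set side by side between most genes. At most 3 tags, that is reads, were counted per position. This limit can hold down short genes with many reads, most in deep libraries. Levels of such genes compare less well with other genes and between libraries. Reads were recovered as whole numbers from FPKM and transcript length, and each interval beside a ratio is a 95% interval from those reads that covers counting error only. It takes each read as independent. If both mates of a pair were counted, which is not known, it is too narrow even for counting error. A gene was called higher or lower at a ratio of 1.5-fold, which is 0.58 on the log2 scale. Shares called are set beside those of all 11981 genes with a mean of at least 20 reads.

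Arntl stood at 34.3, 32.3, 35.6 and 38.7 scaled FPKM in WT at 0, 6, 24 and 48 h, and at 13.9, 11.3, 18.8 and 20.2 in Arntl-/-. Every Arntl-/- library lay below every WT library, and transcript remained in all of them. Libraries held between 8587560 and 27036783 reads on genes, the 48 h libraries being the shallowest in each genotype and WT at 6 h the deepest. Of 10 macrophage markers, 9 were in the table and all were present, with a summed level of 16036 to 39202 scaled FPKM over WT libraries and 18017 to 35171 over Arntl-/- libraries. That sum was highest at 48 h in both genotypes, where most of the cell cycle genes were lowest and the libraries shallowest. In each genotype it was lowest in the deepest library. The part of depth and of the limit on tags per position in this sum was not tested. Stromal markers, collagens above all, also had their highest sum at 48 h, with a range of 458 to 1158 in WT and 339 to 697 in Arntl-/- over 8 genes, none at 0. Neutrophil and granulocyte precursor markers, of which 7 were in the table, summed to 528 to 928 in WT and 860 to 1033 in Arntl-/-, with Mpo at 0 throughout and Elane at no more than 3 reads. Erythroid and mast cell markers summed to at most 1.89 and 3.66, T cell markers to at most 14.8 with Cd3e and Cd3g at 0, and B cell markers to 21.2 to 60.2. The part of these cells in the results below was not tested. In bulk RNA, fewer cycling cells and less of each transcript per cycling cell cannot be told apart.

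Promoter windows were examined because the cycle genes are known to be switched on in waves through different elements. RefSeq windows of the GRCm38.p6 assembly, 250 bases before to 50 after the start, were found for 44 of the 57 genes, some with more than 1 start, which gave 49 windows. The letters TTGGCGC and their variants TTGCCGC and also TTCGCGC and lastly TTCCCGC, read on both strands and allowed to overlap, were counted as an E2F core. TTTGAA or its variant spelling TTCGAA was counted as a CHR. An E2F core was held by 9 of 12 windows of replication genes (75%), 5 of 8 of G1/S control (62.5%) and 3 of 15 of mitosis (20%), against 9.57% of all 32851 windows. A CHR was held by 12 of 15 windows of mitosis genes (80%) and 3 of 12 of replication genes (25%), against 19.2% of all windows. The E-box CACGTG, which the Bmal1 and Clock pair can bind, was in 4 of the 49 windows (8.16%) against 7.15% of all windows, those of Cdk4, Cdk6, Tyms and Cdkn2c. These matches are descriptions of letters, not of bound sites. The 13 genes with no window were Ccna2, Ccne2, Ccnd1, Ccnd2, Mcm4, Cdc25c, Gins1, Gins2, Pole, Rb1, Aurkb, Wee1 and Myc.

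**Figure D1:**
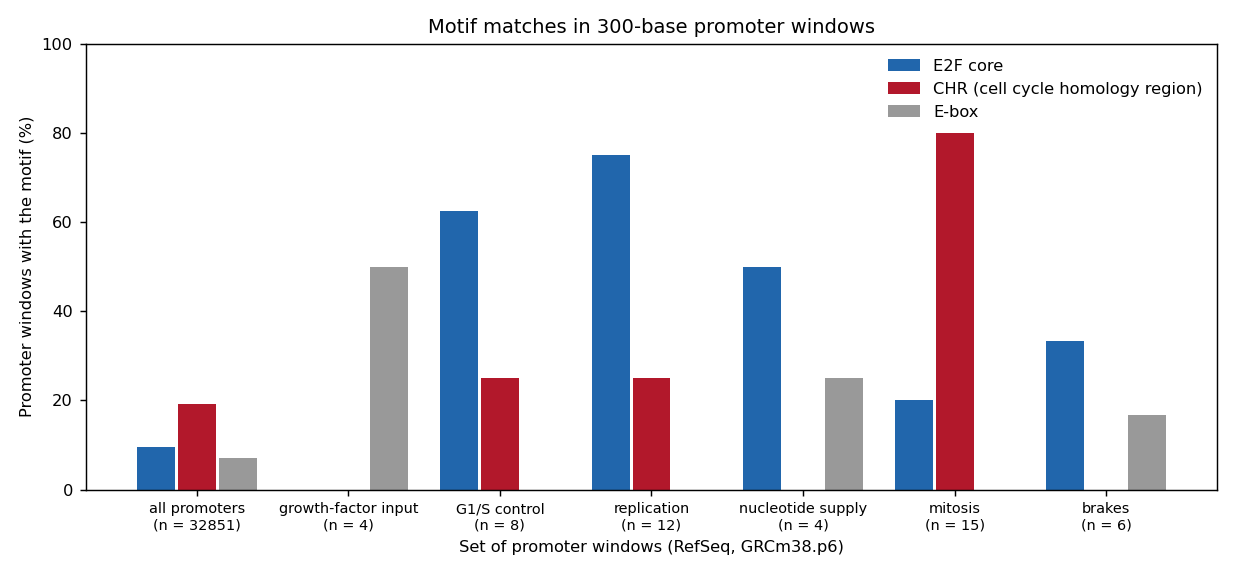
Share of promoter windows (%, y axis) that hold an E2F core, a CHR or an E-box, for all windows and for the windows of each role (x axis, n windows below each). E2F cores were most frequent in replication genes (75%) and CHR letters in mitosis genes (80%).

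The windows of a pair of replication genes follow, written 5′ to 3′ on the strand of the gene with the matches in capitals. Mcm5, a subunit of the replicative helicase, lies on the plus strand at chr8:75109259-75109558 and its capitals mark 3 E2F cores, of which 2 overlap. Cdc6, which loads the helicase at origins, lies on the plus strand at chr11:98907901-98908200 and its capitals mark 1 E2F core.
Mcm5: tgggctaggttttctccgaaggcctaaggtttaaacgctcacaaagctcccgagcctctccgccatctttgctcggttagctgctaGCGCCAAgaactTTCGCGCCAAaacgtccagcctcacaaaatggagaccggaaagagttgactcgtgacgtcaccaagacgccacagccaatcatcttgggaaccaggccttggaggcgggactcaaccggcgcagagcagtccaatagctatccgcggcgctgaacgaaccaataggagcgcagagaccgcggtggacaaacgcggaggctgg
Cdc6: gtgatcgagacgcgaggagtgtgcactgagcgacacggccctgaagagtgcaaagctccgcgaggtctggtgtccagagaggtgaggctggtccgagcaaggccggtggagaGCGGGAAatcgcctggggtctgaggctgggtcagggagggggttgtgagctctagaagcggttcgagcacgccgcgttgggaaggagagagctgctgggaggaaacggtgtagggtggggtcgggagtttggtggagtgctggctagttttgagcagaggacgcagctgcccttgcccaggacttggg

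For mitosis, the windows of Cdk1, the kinase of mitotic entry, and of its partner cyclin Ccnb1 are shown. Cdk1 lies on the minus strand at chr10:69352863-69353162, with 2 E2F cores followed by 2 CHR matches in capitals. Ccnb1 lies on the minus strand at chr13:100786437-100786736, with 1 E2F core in capitals and neither CHR spelling in this window.
Cdk1: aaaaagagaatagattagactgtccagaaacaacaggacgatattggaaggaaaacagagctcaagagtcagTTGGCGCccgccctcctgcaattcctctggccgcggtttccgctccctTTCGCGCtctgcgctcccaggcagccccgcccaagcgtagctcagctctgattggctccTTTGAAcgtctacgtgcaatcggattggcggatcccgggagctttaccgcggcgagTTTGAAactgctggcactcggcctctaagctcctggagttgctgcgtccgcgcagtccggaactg
Ccnb1: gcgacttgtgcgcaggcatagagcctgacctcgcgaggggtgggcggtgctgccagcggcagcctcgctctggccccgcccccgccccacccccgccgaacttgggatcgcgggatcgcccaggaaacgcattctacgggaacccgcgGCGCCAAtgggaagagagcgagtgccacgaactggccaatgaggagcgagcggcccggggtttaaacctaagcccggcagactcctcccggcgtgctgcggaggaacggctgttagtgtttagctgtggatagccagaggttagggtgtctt

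Most of the cell cycle genes were lower after KLA, and the number past 1.5-fold was larger at each later time. At 6 h, 0 of the 57 genes were called higher and 5 lower than at 0 h in WT (8.06% and 4.81% of all genes), and 0 higher and 6 lower in Arntl-/- (4.91% and 5.87%). The WT counts at 6 h on FPKM as deposited were 0 higher and 1 lower (12.8% and 2.02% of all genes), with a median log2 ratio of -0.08 in place of -0.24. By 24 h, 25 were lower and 0 higher in WT (11.4% and 10.7% of all genes), and 32 were lower and 1 higher in Arntl-/- (11.5% and 9.30%). At 48 h, 50 of 57 were lower and 0 higher than at 0 h in WT (17.4% and 15.2%), and 49 were lower and 1 higher in Arntl-/- (18.9% and 16.9%). The median log2 ratio at 48 h was -1.54 in WT and -1.70 in Arntl-/-, with that of all genes within 0.01 of 0. Between 24 and 48 h alone, 41 genes were lower and 3 higher in WT (12.1% and 10.8%), and 40 lower and 0 higher in Arntl-/- (11.3% and 9.71%). The summed level of the 57 genes was 18263, 15044, 13559 and 9495 scaled FPKM in WT and 17154, 15391, 11113 and 8251 in Arntl-/-. Comparisons with 0 h share that library within a genotype, so they are not independent of each other.

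The order of times was also shared by many genes. A level that was lower at each later time, by any amount, was found for 33 of 57 genes in WT and 41 in Arntl-/-, against 9.78% and 13.4% of all genes, and for 28 and 44 on FPKM as deposited. The 48 h library was the lowest for 48 genes in WT and 51 in Arntl-/-, against 31.8% and 35.1% of all genes. The genes outside this pattern in WT were Myc, Ccnd1, Ccnd2, Ccnd3 and Cdk6, lowest at 24 h, E2f1, Pcna and Cdkn1a, lowest at 6 h, and Cdkn1b, lowest at 0 h. On FPKM as deposited 51 genes were lowest at 48 h in WT and 52 in Arntl-/-, with E2f1, Pcna and Cdkn1b among those in WT. WT at 6 h was the deepest library, and the part of the limit on tags per position in the 6 h levels of Pcna and Cdkn1a was not tested.

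**Figure D2:**
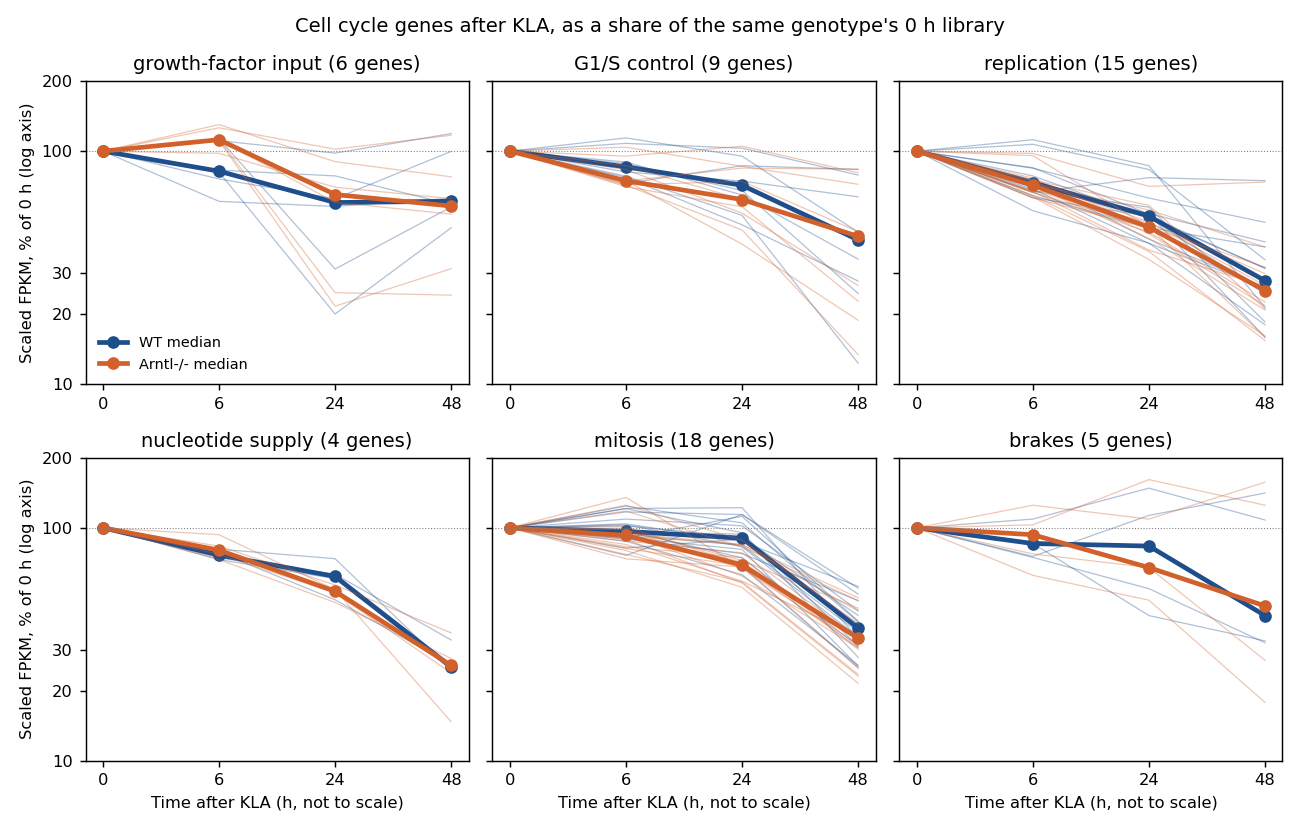
Scaled FPKM as a percent of the same genotype's 0 h library (y axis, log) against time after KLA (x axis, not to scale) in a panel per role. Thin lines are genes, thick lines the median over the genes of a role, blue WT and orange Arntl-/-. The replication median was down to 52.6% in WT at 24 h while the mitosis median was still at 90.3%.

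The roles did not fall at the same pace. At 6 h the median replication gene was at 73.3% of its 0 h level in WT and 71.3% in Arntl-/-, while the median mitosis gene was at 96.6% and 92.7%. By 24 h the replication median was 52.6% in WT and 47.2% in Arntl-/-, and the mitosis median 90.3% and 69.2%. At 48 h all had come down, to 27.8% and 25.2% for replication, 25.3% and 25.6% for nucleotide supply, 37.1% and 33.6% for mitosis, and 41.6% and 43.1% for G1/S control. Growth-factor input genes stood at 60.9% and 58.2%. In both genotypes the replication median was thus below the mitosis median at 6, 24 and 48 h. On FPKM as deposited, with no size factor, the WT mitosis median at 6 h was on the other side of 0 (log2 0.11 in place of -0.05), while that of replication stayed negative (-0.29 in place of -0.45).

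Among the genes of growth-factor input, Myc and Ccnd1 had the steepest fall by 24 h of all 57 genes and, in WT, a partial return. Myc, the growth-factor-induced factor that drives cell growth and division (mm9 chr15:61816896-61821916), stood at 161, 182, 50.2 and 92.8 scaled FPKM in WT at 0, 6, 24 and 48 h. In Arntl-/- it stood at 133, 148, 32.7 and 31.9. Both genotypes were thus low at 24 h, WT was then higher again at 48 h, and Arntl-/- stayed where it was. The log2 ratio of 48 to 24 h was 0.89 in WT (interval 0.62 to 1.15) and -0.04 in Arntl-/- (-0.40 to 0.32). Ccnd1, cyclin D1 (mm9 chr7:152115836-152125830), had 699, 568, 140 and 328 in WT and 600, 667, 130 and 188 in Arntl-/-. It was the member furthest below its 0 h level at 24 h in both genotypes, at 20.0% in WT and 21.6% in Arntl-/-. From 24 to 48 h its log2 ratio was 1.23 in WT (1.11 to 1.35) and 0.54 in Arntl-/- (0.41 to 0.66).

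Cyclin D2 and the D-cyclin kinases moved less. Ccnd2 was at 129, 98.1, 80.7 and 129 in WT and at 105, 136, 94.4 and 81.2 in Arntl-/-, so that WT was back at its 0 h level by 48 h and Arntl-/- was at its lowest. Cdk6 was at 307, 187, 178 and 192 in WT and at 254, 284, 153 and 136 in Arntl-/-. The drop of Cdk6 thus lay before 6 h in WT and after 6 h in Arntl-/-. Ccnd3, cyclin D3, kept 368, 407, 361 and 437 in WT and 358, 450, 366 and 417 in Arntl-/-, and Cdk4 went from 622 through 515 and 487 to 367 in WT and from 591 through 578 and 414 to 370 in Arntl-/-. Cyclin D3 was not called at any time against 0 h, and Cdk4 was called lower at 48 h in both genotypes.

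Among the G1/S genes, the cyclins E and the repressor E2Fs fell, and the activator E2Fs were not called lower. Ccne1 went through 269, 207, 130 and 74.5 in WT and 236, 196, 128 and 62.5 in Arntl-/-, and Ccne2 through 182, 161, 123 and 44.5 in WT and 207, 148, 94.8 and 27.7 in Arntl-/-. These cyclins activate Cdk2 at the start of S phase. E2f7 and E2f8, the atypical repressor E2Fs, were at 62.4, 48.7, 33.0 and 7.69 and at 200, 180, 130 and 68.7 in WT. In Arntl-/- E2f7 was at 53.1, 39.6, 21.2 and 9.98 and E2f8 at 204, 144, 118 and 46.4. E2f7 had the lowest share left of all 57 genes in WT at 48 h, 12.3%, and Ccne2 in Arntl-/-, 13.4%.

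The activator E2f1 stood at 318, 231, 275 and 266 in WT and at 248, 257, 213 and 179 in Arntl-/-, and E2f2 at 115, 123, 118 and 90.7 in WT and 111, 105, 116 and 89.4 in Arntl-/-. Neither was called lower at 48 h than at 0 h in either genotype, although E2f1 was in Arntl-/- on FPKM as deposited (log2 ratio -0.65 in place of -0.47). Rb1, the retinoblastoma pocket protein that holds E2F in check, was at 96.6, 78.6, 71.8 and 61.5 in WT and at 106, 78.9, 89.6 and 88.6 in Arntl-/-. Its WT level was lower at each later time, while in Arntl-/- it came back after 6 h, and it was called lower at 48 h in WT (log2 ratio -0.65, -0.83 to -0.48, and -0.55 and thus not called after the lowess correction) and was at -0.26 in Arntl-/- (-0.40 to -0.11). Cdk2 and Cdc25a, the phosphatase that activates it, were at 44.9% and 41.6% of 0 h in WT at 48 h and at 45.2% and 43.1% in Arntl-/-.

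Of the 15 replication genes, 14 were called lower at 48 h in both genotypes, and those 14 kept between 15.9% (Cdc6) and 49.5% (Gins2) of 0 h in WT. Mcm2 to Mcm7 encode the 6 subunits of the helicase that unwinds DNA at the fork. Mcm2 was at 377, 259, 152 and 98.1 in WT and at 345, 220, 118 and 55.5 in Arntl-/-. For Mcm5 the values were 398, 284, 207 and 111 in WT and 367, 262, 155 and 76.4 in Arntl-/-. Each of the 6 subunits was lower at each later time in both genotypes and lower in Arntl-/- than in WT at all 4 times, except Mcm4 on FPKM as deposited. Within counting error of WT were Mcm3 at 6 h (log2 ratio -0.02, -0.09 to 0.05) and Mcm4 at 0 h (-0.04, -0.12 to 0.03). The share of the 6 subunits left at 48 h was between 26.0% and 40.8% in WT and between 16.1% and 31.8% in Arntl-/-. Cdc6 and Cdt1, which load the helicase, were at 90.8, 77.1, 48.8 and 14.4 and at 425, 320, 178 and 111 in WT. In Arntl-/- Cdc6 was at 86.0, 55.5, 31.9 and 13.3 and Cdt1 at 418, 281, 157 and 109.

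The polymerase subunits among the 57 genes were called lower at 48 h, and the sliding clamp was not. Pola1, the catalytic subunit of the primase-linked polymerase, came down to 22.5 in WT from 125, and to 22.1 in Arntl-/- from 102, and was the lowest of the 57 genes relative to 0 h at 6 h in WT (55.5%). Pole, the leading-strand polymerase, came down from 88.6 to 16.4 and from 78.2 to 12.4. Pcna, the clamp that holds polymerases on DNA and also serves in repair, was at 1782, 1187, 1373 and 1331 in WT and at 1509, 1476, 1065 and 1112 in Arntl-/-. It kept 74.7% and 73.7% of its 0 h level at 48 h and was the 1 replication gene of 15 not called lower there in either genotype. It was called lower after the lowess correction in both (log2 ratio -0.82 in WT and -1.02 in Arntl-/-) and on FPKM as deposited in Arntl-/- (-0.61).

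Genes of nucleotide supply followed replication. Rrm2, the regulated subunit of ribonucleotide reductase, was at 815, 596, 493 and 201 in WT and at 765, 588, 402 and 182 in Arntl-/-. Tk1, thymidine kinase, was at 466, 377, 344 and 114 in WT and at 485, 354, 232 and 133 in Arntl-/-. At 48 h they kept 24.7% and 24.4% of 0 h in WT, nearly the same share. Tyms, thymidylate synthase, ended at 17.4 in WT and 8.84 in Arntl-/- from 67.1 and 59.9 at 0 h. Rrm1 kept the most of the group, 33.0% and 35.4%.

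The median mitosis gene was near its 0 h level for a day in WT, and all 18 were called lower at 48 h in both genotypes. Mki67, the proliferation antigen Ki-67 (mm9 chr7:142881471-142908062), was at 318, 242, 363 and 175 in WT and at 271, 319, 224 and 132 in Arntl-/-. Top2a, the topoisomerase that untangles sister chromatids, was at 608, 498, 544 and 234 in WT and at 570, 532, 406 and 192 in Arntl-/-. From 6 to 24 h the log2 ratio of Mki67 was 0.58 in WT and -0.51 in Arntl-/-. For Top2a it was 0.13 and -0.39, and the WT value was below 0 on FPKM as deposited (-0.06) and after the lowess correction (-0.07). Aurka, the centrosomal kinase Aurora A, had 203, 246, 248 and 68.0 in WT and 230, 216, 143 and 70.2 in Arntl-/-. Its 24 h level was thus 122% of 0 h in WT and 62.1% in Arntl-/-, and at 48 h the genotypes met.

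The cyclins and kinases of mitotic entry were all called lower at 48 h, by different courses. Ccna2, cyclin A, was at 319, 299, 268 and 114 in WT and at 336, 300, 195 and 77.5 in Arntl-/-. Ccnb1, cyclin B, was at 285, 259, 230 and 72.5 and at 258, 253, 173 and 81.7, and its partner Cdk1 at 228, 199, 143 and 58.6 and at 217, 184, 128 and 74.0. Ccna2 and Ccnb1 lost more between 24 and 48 h than before in WT, and Cdk1 came down more evenly. Plk1, a kinase of mitotic entry and exit, was at 164, 199, 156 and 51.0 in WT and at 157, 155, 114 and 71.1 in Arntl-/-. Aurkb, the kinase of the chromosomal passenger complex, was at 291, 298, 265 and 122 in WT and at 299, 248, 223 and 90.0 in Arntl-/-. From 24 to 48 h all 18 mitosis genes were called lower in both genotypes.

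Between 0 and 24 h the mitosis genes differed by genotype in 1 direction. All 18 kept a smaller share of their own 0 h level in Arntl-/- than in WT, against 47.4% of all genes, although Mad2l1, a spindle checkpoint gene, was nearly level (68.7% in WT and 68.6% in Arntl-/-). The lowest and highest shares were 62.9% and 122% in WT, and 55.5% and 88.6% in Arntl-/-. Of 18 genes, 1 was called lower by 24 h in WT (Cdk1) and 5 in Arntl-/- (Ccna2, Cdk1, Aurka, Kif23 and Bub1), against 11.4% and 11.5% of all genes. The 5 were 9 on FPKM as deposited, with Ccnb1, Cdc25c, Kif11 and Mad2l1 added. The count of 18 was the same on FPKM as deposited, with upper-quartile factors and with a lowess correction for expression level. It rests on 4 libraries, those of 0 and 24 h, and whether it is larger than the spread between cultures cannot be told from 1 library each.

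**Figure D3:**
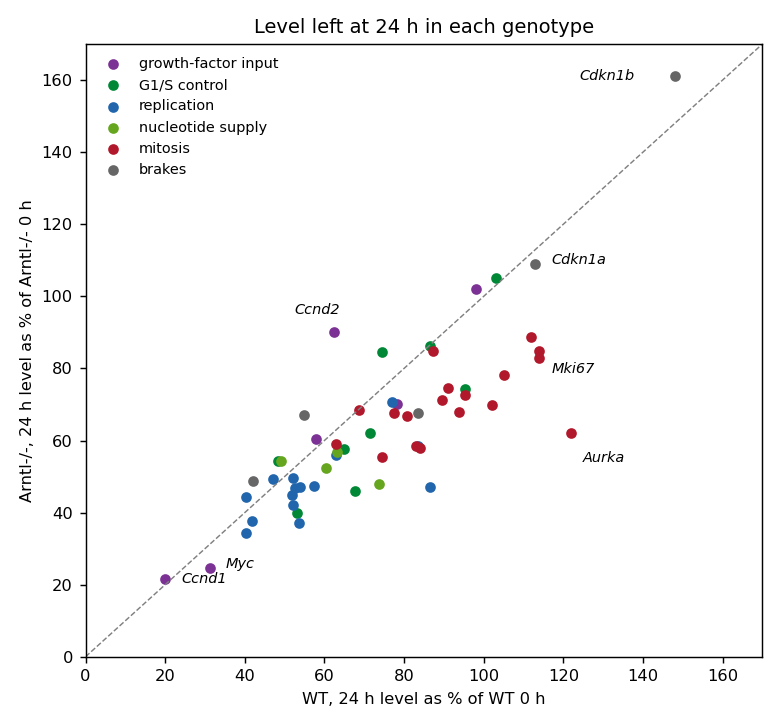
Level at 24 h as a percent of the same genotype's 0 h level, WT on the x axis and Arntl-/- on the y axis, with a point per gene coloured by role and a dashed line of equal shares. All 18 mitosis genes lie below the line, Aurka furthest with 122% in WT and 62.1% in Arntl-/-.

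Of the 5 brakes, the p21 and p27 genes stood above their 0 h level at 24 and 48 h while the other 3 were below it, except that p27 in WT at 48 h was within counting error of 0 h (log2 ratio 0.11, -0.05 to 0.27) and below it on FPKM as deposited (-0.03). Cdkn1a, the p53-responsive CDK inhibitor p21, was at 1389, 1048, 1568 and 1962 in WT and at 1207, 1513, 1317 and 1895 in Arntl-/-. With 1905 bases, it held 9753 reads in WT at 6 h, the deepest library, and 4986 in WT at 48 h. The part of the limit on tags per position in its course was not tested. Cdkn1a was highest at 48 h in both genotypes, at a log2 ratio to 0 h of 0.50 in WT (0.44 to 0.55) and 0.65 in Arntl-/- (0.60 to 0.70), and only the second passed 1.5-fold. Cdkn1b, the CDK inhibitor p27, was at 161, 176, 239 and 174 in WT and at 161, 166, 259 and 201 in Arntl-/-, with its highest level at 24 h in both. Its log2 ratio of 24 to 0 h was 0.57 in WT (0.43 to 0.71) and 0.69 in Arntl-/- (0.58 to 0.80). These were the only calls upward from 0 h among the 57 genes in either genotype, p27 at 24 h and p21 at 48 h in Arntl-/-, and p21 at 48 h no longer passed 1.5-fold on FPKM as deposited (0.48) or after the lowess correction (0.04).

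Cdkn2c, the Cdk4 and Cdk6 inhibitor p18, fell with the cycle genes, from 319 through 277 and 266 to 134 in WT and from 299 through 231 and 202 to 80.8 in Arntl-/-. Wee1, the kinase that restrains Cdk1, was at 108, 80.9, 59.4 and 34.8 in WT and at 86.7, 81.0, 58.1 and 40.0 in Arntl-/-. Chek1, the S-phase checkpoint kinase, was at 48.8, 41.8, 20.5 and 16.0 and at 46.6, 29.1, 22.8 and 8.29. Wee1 and Chek1 are themselves used in S and G2 phase, and all 3 genes were called lower at 48 h in both genotypes.

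**Figure D4:**
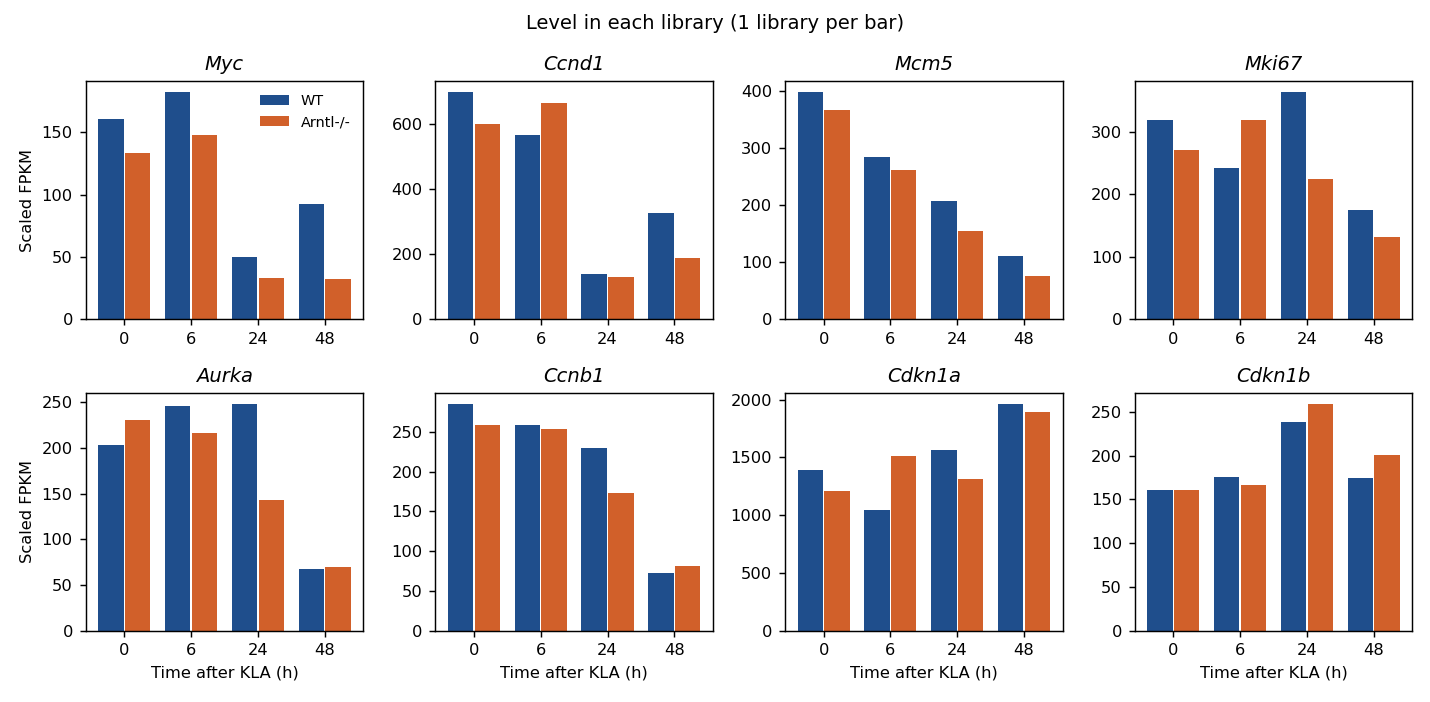
Scaled FPKM (y axis, from 0) of Myc, Ccnd1, Mcm5, Mki67, Aurka, Ccnb1, Cdkn1a and Cdkn1b against time after KLA (x axis) with 1 library per bar, WT in blue and Arntl-/- in orange. Myc was at 92.8 in WT and 31.9 in Arntl-/- at 48 h, and Cdkn1a was highest at 48 h in both.

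Set directly against WT, Arntl-/- cells had few cell cycle genes past 1.5-fold, and from 24 h on all of those were lower. At 0 h, 0 genes were higher and 1 was lower (5.98% and 3.75% of all genes), and at 6 h 1 was higher and 0 were lower (3.26% and 5.11%). At 24 h, 0 were higher and 7 lower (6.93% and 5.11% of all genes), namely Myc, E2f7, Cdc6, Prim1, Cdc25c, Aurka and Mki67. At 48 h, 0 were higher and 10 lower (9.65% and 8.03%), namely Myc, Ccnd1, Ccnd2, Ccne2, Mcm2, Mcm6, Tyms, Cdc25c, Cdkn2c and Chek1. The median log2 ratio was -0.09, -0.12, -0.28 and -0.25 at 0, 6, 24 and 48 h. By any amount, 40, 39, 50 and 42 of 57 genes were lower in Arntl-/-, against 51.1%, 50.0%, 49.5% and 51.8% of all genes. Myc and Cdc25c were called lower at both 24 and 48 h. On FPKM as deposited the calls of Myc (-0.57) and Cdc6 (-0.56) at 24 h and of Cdc25c at 0 h (-0.55) were not made, and that of Mcm6 at 48 h was made neither there (-0.57) nor with upper-quartile factors (-0.58). Neutrophil markers summed to more in Arntl-/- than in WT at each time, and stromal markers to less.

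**Figure D5:**
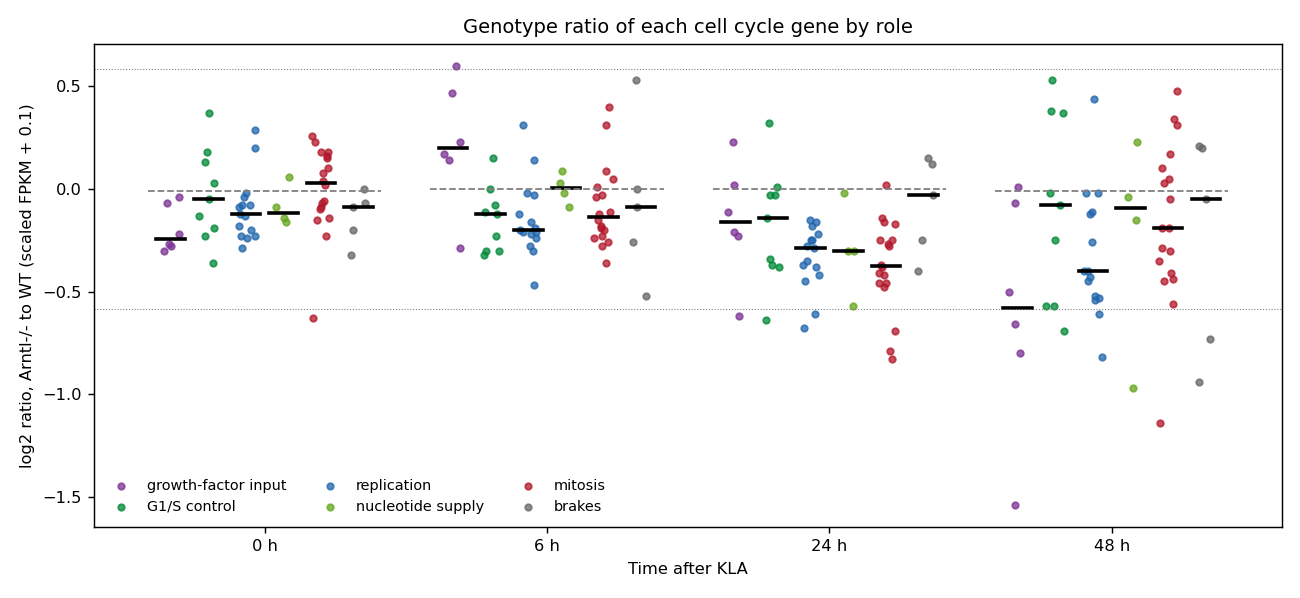
Log2 ratio of Arntl-/- to WT (y axis, scaled FPKM + 0.1) for each gene at 0, 6, 24 and 48 h of KLA (x axis), coloured by role, with the median of a role as a black bar, the median of all genes as a dashed line and 1.5-fold as dotted lines. At 24 h all 15 replication genes and 17 of 18 mitosis genes are below 0, and Myc is the lowest point at 48 h (-1.54).

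The furthest genes differed from time to time. In resting cells Cdc25c, a phosphatase that activates Cdk1, was lowest relative to WT (48.0 in WT and 31.0 in Arntl-/-, log2 ratio -0.63, -0.93 to -0.34), followed by E2f1 (-0.36) and Wee1 (-0.32), and Cdk2 (0.37), Cdc45 (0.29) and Ccnb2 (0.26) were highest. At 6 h Cdk6 was the 1 gene called higher (log2 ratio 0.60, 0.51 to 0.69), ahead of Cdkn1a (0.53) and Ccnd2 (0.47), and Chek1 (-0.52), Cdc6 (-0.47) and Plk1 (-0.36) were lowest. The call of Cdk6 was not made under 3 other scalings, FPKM as deposited, upper-quartile factors and lowess. At 24 h the lowest were Cdc25c (-0.83), Aurka (-0.79, -0.94 to -0.64) and Mki67 (-0.69, -0.75 to -0.64). At 48 h Myc was lowest (-1.54, -1.88 to -1.21), then Cdc25c (-1.14, -1.88 to -0.47) and Tyms (-0.97, -1.54 to -0.44), and Rb1 was highest (0.53, 0.33 to 0.72). Cdc25c and Tyms rest on few reads at 48 h, which the width of their intervals shows.

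Replication genes carried the most regular genotype difference. Lower in Arntl-/- at all 4 times, by any amount, were 19 of 57 genes against 7.25% of all genes, and 11 of those 19 were among the 15 replication genes (Mcm2 to Mcm7, Cdc6, Cdt1, Gins1, Gins2 and Pole). Some of these ratios lay within counting error, such as that of Cdt1 at 0 and 48 h (-0.02 at both). The median log2 ratio of replication genes was -0.12, -0.20, -0.29 and -0.40 at 0, 6, 24 and 48 h. For Mcm5 it was -0.12 (-0.19 to -0.05), -0.12 (-0.19 to -0.05), -0.42 (-0.53 to -0.30) and -0.54 (-0.74 to -0.33), so Mcm5 was below 1.5-fold at every time. Those past it were Cdc6 (-0.61) and Prim1 (-0.68) at 24 h and Mcm2 (-0.82) and Mcm6 (-0.61) at 48 h. With FPKM as deposited the 11 genes were 7, and with upper-quartile factors or lowess 10. Rb1 was the 1 gene higher in Arntl-/- at all 4 times, although its 6 h ratio was 0.00, and it was not so on FPKM as deposited or with upper-quartile factors.

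Genes of the same pathways that are not among the 57 were mostly lower at 48 h as well. Of 36 other replication genes, 30 were called lower by 48 h and 0 higher in WT, with 34 and 0 in Arntl-/-. The shares of all genes called at 48 h, here and for the lists that follow, were 17.4% lower and 15.2% higher in WT and 18.9% and 16.9% in Arntl-/-. Mcm10, which helps start the helicase, was at 141, 131, 82.2 and 26.3 in WT and 150, 127, 63.4 and 13.2 in Arntl-/-, and Orc1, of the origin recognition complex, ended at 5.26 in WT and 16.1 in Arntl-/- after 44.0 and 44.1 at 0 h. Gins4 (-0.20) and Pold3 (-0.33) had the highest log2 ratio to 0 h of this list in WT, and Rfc2 (-0.50) and Rfc1 (-0.58) in Arntl-/-, where Cdc7 (-3.08) was next to Mcm10 (-3.49) at the low end. Against WT at 48 h, 2 of the 36 were higher and 10 lower in Arntl-/- (9.65% and 8.03% of all genes), from Orc1 (1.60) and Rpa3 (0.62) to Gins3 (-1.82) and Ung (-1.77).

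Of 38 other mitosis genes, 33 were called lower by 48 h in WT and 36 in Arntl-/-, with 0 higher. At 24 h, 1 of 38 was called lower in WT and 21 in Arntl-/- (11.4% and 11.5% of all genes), and all 38 were below 0 h in Arntl-/- by any amount against 28 in WT (49.1% and 50.7% of all genes). Mybl2, a subunit of the complex that activates mitosis genes, went from 133 to 22.2 and from 132 to 17.3, Kif15 (-2.48) being next to it (-2.58) in WT and Melk (-2.99) below it (-2.93) in Arntl-/-. Bub3 (-0.36 and -0.33), Pttg1 in WT (-0.02) and Incenp in Arntl-/- (-0.52) moved least. In Arntl-/- against WT at 48 h, 1 was higher (Cenpa, 1.05, ahead of Cdca8, 0.28) and 3 lower (9.65% and 8.03% of all genes), with Melk (-0.82) and Racgap1 (-0.74) the lowest.

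Genes of growth arrest and p53 targets did not move as a block. By 48 h, 4 of these 16 were called higher and 1 lower relative to 0 h in WT, with 1 and 2 in Arntl-/-. Btg1, an antiproliferative gene, was at 292, 243, 526 and 495 in WT and 266, 351, 535 and 681 in Arntl-/-. Plk2 (0.83 in WT), Ccng2 (0.55 in Arntl-/-), Trp53 (-0.51 in WT and -0.66 in Arntl-/-) and Sesn1 (-1.54 in WT and -0.68 in Arntl-/-) were the others at the ends of the list. Against WT at 48 h, Sesn1 (0.80) and Btg1 (0.46) were highest and Gadd45g (-0.55) and Tob1 (-0.51) lowest, with 1 gene called higher and 0 lower, against 9.65% and 8.03% of all genes.

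Among 13 other E2F, pocket protein and CDK inhibitor genes, 2 were called higher by 48 h and 7 lower in WT, with 1 and 7 in Arntl-/-. Rbl1, the pocket protein p107, fell most, to 55.1 in WT and 44.5 in Arntl-/- after 183 and 191 at 0 h, next to Cdkn3 (-1.47 and -1.91). Cdkn1c, the CDK inhibitor p57, rose at 48 h in both, through 12.9, 9.17, 28.3 and 76.6 in WT and 4.39, 4.77, 5.05 and 66.9 in Arntl-/-. Cdkn2b, the CDK inhibitor p15, was at 29.1 in WT and 4.48 in Arntl-/- at 48 h, on 54 and 8 reads, and Cdkn2a at 9.73 and 32.0, on 12 and 38 reads. Cdkn2d was level at 48 h in Arntl-/- (-0.04), and E2f3 (0.47) and E2f5 (-0.58) were the remaining ends of the genotype comparison. Stromal markers, which also had their highest sum at 48 h, moved in the same direction as Cdkn1c, and their part in its level was not tested.

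The Myc network gave 8 analysed genes of 10 listed, with 4 called higher and 1 lower by 48 h in either genotype, Mycn being among the 4 in Arntl-/-. Mxd1 and Mxi1, Max partners that oppose Myc, were at 78.2 and 41.8 in WT at 0 h and at 171 and 72.6 at 48 h, with 119 and 41.8 at 0 h and 185 and 109 at 48 h in Arntl-/-. Mxd3 (-0.81 and -1.06) and Mnt (-0.48 and -0.15) had the lowest log2 ratios to 0 h. Against WT at 48 h, Mxi1 was at 0.59 and Mlx (-0.61) and Max (-0.31) were lowest in Arntl-/-. Mycn had 0, 2, 6 and 0 reads in WT and 0 reads in Arntl-/- before 48 h, where it had 202 reads and 60.7 scaled FPKM. Such a level in 1 library alone, with no replicate, is given as a count and no fold. Mycn passed the read filter only through that library, so its call in Arntl-/- carries no weight of its own.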

How the data were processed

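PolyA RNA was sequenced from 8 BMDM libraries, 1 for each genotype and time, so the groups followed the titles of the samples. According to the labels, the authors aligned paired-end reads to mm9 with STAR and used HOMER on RefSeq genes. Per the file header, the deposited FPKM were computed by HOMER per kb of exon and per 10000000 reads, with at most 3 tags per position, on both strands. The labels name gene bodies in place of exons, and also a further normalization of read counts by a count-model package. The header shows no such step, and whether it was applied to this table is not given. Versions of these tools are not given in the sources used here. Counting without strand cannot tell a gene from an overlapping antisense gene, and mates of a pair may both be counted. Of the table, 4 other columns of values and 1 incomplete line were not used, and the ChIP-seq files were not used here.

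Reads were recovered from FPKM times length, which gave whole reads within 0.1 read for 100% of the values of up to 30 reads, and summed to 8587560 to 27036783 per library. Size factors were medians of ratios over the 8 libraries, from 0.918 to 1.13. Ratios used a pseudocount of 0.1, genes with a mean of at least 20 reads (11981) and a line of 1.5-fold. Intervals were exact Clopper-Pearson intervals of the share of reads at 95%, for counting error only. No between-condition test was made, with 1 library per condition. The calculation was tested on simulated data. Alternatives were FPKM as deposited, upper-quartile factors, a lowess correction, pseudocounts of 1 and 0.01, no filter, a mean of at least 100 reads and 2-fold.

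The genes, roles and other lists were chosen with earlier results of these data known. Values in all libraries were given for a set list of members. The 3 highest and 3 lowest members of each comparison, and the 2 highest and 2 lowest genes of each other list at 48 h, were picked in addition. Many of these are given by a ratio or end values alone, or by name. Promoters came from a RefSeq table of GRCm38.p6, used for sequence and position, while gene positions named mm9 are those of the deposited table. The work ran in Python 3.11.15 with scipy 1.17.1 for intervals, statsmodels 0.14.6 for lowess, pandas 2.3.3 and numpy 2.4.6 for tables, and matplotlib 3.10.9 for plots.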

Additional observations from a re-analysis of the deposited data

Results flagged for a closer look

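The following genes moved by at least 1.5-fold in 1 genotype and in the opposite direction in the other, both beyond counting error, and the differences were not tested, since each value compares 1 library with 1 other. Cdk6 had a log2 ratio of 6 to 0 h of -0.71 in WT and 0.16 in Arntl-/-. For Aurka the log2 ratio of 24 to 0 h was 0.29 in WT and -0.69 in Arntl-/-. Between 24 and 48 h Ccnd2 had a log2 ratio of 0.67 in WT and -0.22 in Arntl-/-. On FPKM as deposited the WT ratios of Cdk6 (-0.56) and Ccnd2 (0.57) were short of 1.5-fold.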

How the results depend on the processing

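Each comparison gave a count of genes higher, a count lower and a median, and 263 of 288 such values under the 8 alternatives stayed within 1.5 times the main count or near the main median. The filters on reads do not change these values, so they could not move under them. Of 36 values each, 13 moved at 2-fold, 9 on FPKM as deposited, 2 with the lowess correction and 1 with upper-quartile factors. No median of the 57 genes changed sign. For the ratios of single genes, 238 of 5472 moved beyond counting error, all of them under other scalings. These were 169 of 684 on FPKM as deposited, 65 with the lowess correction and 4 with upper-quartile factors. The filters and the 2-fold line leave these ratios unchanged, and the pseudocounts moved none beyond counting error. Of 684 ratios, 41 within 1.5-fold changed sign on FPKM as deposited, 9 with upper-quartile factors and 23 with the lowess correction. Factors per library shift all genes of a comparison alike and by less than 1.5-fold, so larger ratios could not change sign under them. Pseudocounts and filters moved these values by less than that, the count of genes lower in Arntl-/- at 6 h against 0 h being 5 in place of 6 at a pseudocount of 1.

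On FPKM as deposited, Arntl-/- against WT gave 0 genes lower and a median of -0.01 at 0 h, and 0 higher, 2 lower and a median of -0.25 at 6 h. WT at 6 h against 0 h gave 1 lower and a median of -0.08, WT at 48 h a median of -1.68, and Arntl-/- at 48 h 0 higher. That scale moved the median of all genes by up to -0.18 (Arntl-/- at 48 h against 0 h). Of all genes, 8.06% were higher and 4.81% lower in WT at 6 h against 0 h, and 12.8% and 2.02% on that scale, and for Arntl-/- against WT at 6 h 3.26% and 5.11% became 1.70% and 7.96%. Less that shift, the medians of the 57 genes were those of the main scale. Upper-quartile factors gave 0 higher in Arntl-/- against WT at 6 h, and the lowess correction gave 0 there and 0 higher in Arntl-/- at 48 h against 0 h. At 2-fold, Arntl-/- against WT gave 0 lower at 0 h, 0 higher at 6 h, 0 lower at 24 h and 2 lower at 48 h. In WT it gave 0 lower at 6 h, 9 at 24 h, and 27 lower and 1 higher from 24 to 48 h, and in Arntl-/- 0 lower at 6 h, 18 lower and 0 higher at 24 h, 0 higher at 48 h and 26 lower from 24 to 48 h.

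Each condition had 1 library, so there were no replicate numbers to pair by, and a fit of genotype with time as a term over the 8 libraries was not made. Depth limits Cdc25c, Chek1, Gins1 and Tyms most, with 26, 36, 41 and 43 reads in Arntl-/- at 48 h, and the spread between cultures is not known.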
